A study of Mus musculus with 6 samples.

Results

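The genes described are the transcriptional arm of the Hippo pathway and its read-outs: Yap1, Wwtr1, Tead1, Tead4, Ccn1, Ccn2, Ankrd1, Amotl2, Lats2 and Ajuba. They were chosen by name, and all 10 were found among the 55494 gene rows of the count table. Expression was measured by poly(A) RNA sequencing in primary muscle stem cells (MuSCs) of wild-type mice, cultured for 2 days without (control, 3 libraries) or with 11,12-EET (EET, 3 libraries). 11,12-EET is an epoxyeicosatrienoic acid, a lipid mediator derived from arachidonic acid. The sources used here give neither the dose nor the control medium, nor the age of the mice. Nothing says that the libraries of a group are separate animals or cultures, so the p-values reflect only library-to-library spread, which may be technical. The question was how 11,12-EET changes the transcriptome of these cells.

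In the Hippo pathway, a chain of kinases ends in LATS1 and LATS2, which phosphorylate the cofactors YAP (Yap1) and TAZ (Wwtr1) and keep them out of the nucleus. When the chain is off, as on a stiff matrix or in spread cells, YAP and TAZ enter the nucleus, bind TEAD transcription factors and switch on genes such as Ccn1, Ccn2 and Ankrd1. Some of the targets, Lats2 and Amotl2 among them, feed back on YAP. In muscle stem cells, YAP is known to favour expansion of activated cells. All of this is regulated largely at the level of protein, which mRNA counts do not measure.

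The labelled cell type was checked first. The summed level of 10 satellite cell and myoblast markers was 4116 to 4418 CPM (counts scaled for library size with TMM factors) in controls and 4709 to 4827 CPM with EET, and Myod1, a myogenic determination factor among them, held a mean of 1068 CPM. As counted, 5 of the 10 rose and 2 fell, at an adjusted p under 0.05 in the test across all genes described with the fold changes. Myod1 (log2 fold change 0.25, edgeR adjusted p = 0.0047) and Des, the muscle intermediate filament (0.54, adjusted p = 9.54e-05), were among those that rose. The 2 that fell were Pax7, the factor that marks quiescent and activated satellite cells (−0.45, adjusted p = 6.34e-05), and Megf10, a satellite cell receptor (−0.64, adjusted p = 3.39e-05). With the mRNA length and GC trend removed, as described with the fold changes, 2 were higher (Des and Chrna1, a muscle acetylcholine receptor subunit) and 1 lower (Myod1, −0.14, adjusted p = 0.0229), and Pax7 (−0.05) and Megf10 (−0.06) did not pass. Markers of other cells were present at lower levels, none at 0 in all libraries. Summed endothelial markers (10 genes) were at 312 to 325 CPM in controls and 197 to 213 CPM with EET, where 6 fell and 1 rose. Pericyte and smooth muscle markers (8 genes, of which 7 passed the filter on low counts) went from a range of 166 to 182 CPM to one of 112 to 124 CPM, with 5 lower and 1 higher. Fibroblast markers (10 genes) were at 387 to 396 CPM and 354 to 357 CPM, with 2 lower and 1 higher, and leukocyte markers (8 genes) at 295 to 324 CPM and 189 to 378 CPM, with 1 lower and 0 higher. With the trend removed, 8 endothelial, 3 pericyte, 4 fibroblast and 5 leukocyte markers were lower, and 0, 0, 0 and 1 were higher. Over all genes 23.3% were called lower and 24.6% higher as counted, and 16.8% and 17.3% with the trend removed. Such cells also express YAP targets. Library totals were 30371291 to 37243882 counts.

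The windows around the RefSeq transcription starts of these genes shared a sequence feature. Several of the genes were listed as targets of YAP and TEAD, so a TEAD motif near their starts is not independent of the choice. The shares over all genes below are therefore given as a description only. Of the 10 genes 7 matched the RefSeq table for build GRCm38.p6 (all but Tead1, Tead4 and Ccn2), and each of the 7 held the TEAD core motif CATTCC, or GGAATG on the other strand, in at least 1 of its windows, which run from 250 bases before to 50 bases after a start. The motif was held by 16.6% of all genes listed there (14.7% of 32851 windows). The AP-1 motif TGANTCA, the other motif searched, was in 0 of the 9 windows of these genes and in 7.81% of all windows. A match of letters is a description and not a binding site. The windows of 4 target genes are shown because their mRNAs responded differently: Ankrd1 and Amotl2, which moved in opposite directions as counted, and Ccn1 and Ajuba, whose counts did not pass the test. Capitals mark the TEAD motif, and each run reads 5′ to 3′ along the gene.

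Ankrd1 (chr19:36119795-36120094, minus strand): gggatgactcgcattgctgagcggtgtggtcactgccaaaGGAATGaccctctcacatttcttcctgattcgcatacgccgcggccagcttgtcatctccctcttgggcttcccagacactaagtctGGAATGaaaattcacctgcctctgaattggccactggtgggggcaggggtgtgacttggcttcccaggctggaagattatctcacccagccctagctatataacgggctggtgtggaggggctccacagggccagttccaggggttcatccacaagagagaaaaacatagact
Ccn1 (chr3:145649936-145650235, minus strand): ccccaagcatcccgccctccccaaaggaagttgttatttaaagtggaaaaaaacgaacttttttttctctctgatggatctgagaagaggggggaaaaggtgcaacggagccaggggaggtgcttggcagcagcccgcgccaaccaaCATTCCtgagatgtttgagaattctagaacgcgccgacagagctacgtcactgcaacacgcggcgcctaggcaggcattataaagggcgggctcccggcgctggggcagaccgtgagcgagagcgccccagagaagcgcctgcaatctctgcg
Amotl2 (chr9:102717554-102717853, plus strand): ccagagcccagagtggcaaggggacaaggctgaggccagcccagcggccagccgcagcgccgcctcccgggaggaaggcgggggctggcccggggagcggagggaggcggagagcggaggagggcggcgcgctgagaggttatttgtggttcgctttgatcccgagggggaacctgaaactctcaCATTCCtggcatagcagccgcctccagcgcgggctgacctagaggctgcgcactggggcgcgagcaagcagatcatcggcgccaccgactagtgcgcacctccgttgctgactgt
Ajuba (chr14:54577612-54577911, minus strand): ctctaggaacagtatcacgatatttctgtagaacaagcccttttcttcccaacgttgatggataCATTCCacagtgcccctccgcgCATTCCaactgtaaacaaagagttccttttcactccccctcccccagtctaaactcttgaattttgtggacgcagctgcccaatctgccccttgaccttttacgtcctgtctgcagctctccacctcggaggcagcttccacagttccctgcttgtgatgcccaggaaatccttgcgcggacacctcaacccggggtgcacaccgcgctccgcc

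Ankrd1 and Ajuba held the motif at 2 places, with first bases at −210 and −123, and at −186 and −164, counted from the RefSeq start. The Ajuba window, from 54577612, lies wholly upstream of the gene as annotated in GENCODE. That minus-strand gene begins at 54577558. The Amotl2 window, from 102717554, lies wholly inside the GENCODE gene, which is on the plus strand and begins at 102716672. In Ccn1 the motif began at −103 and in Amotl2 at −65. Yap1 and Wwtr1 held it too, with first bases at −141 for Yap1 and at −136 and −170 from the 2 listed Wwtr1 starts, whose windows overlap and share 1 motif. In Lats2 it lay just inside the transcript, at 5 after 1 start, and was not in the window of its other start. Both Lats2 windows lie inside the GENCODE gene, which is on the minus strand and begins at 57758388.

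The levels of the 10 genes differed widely before any treatment. Compared per length of mRNA (CPM per kb of the longest protein-coding transcript), Ankrd1 led in controls at 712 ± 36.1 CPM per kb (SD, n = 3), the 49th of 13811 protein-coding genes. Ccn1 followed at 491 ± 24.9 CPM per kb, the 74th, and Ccn2 at 118 ± 6.13 CPM per kb, the 444th. Then came a close group: Amotl2 at 39.2 ± 0.393, Yap1 at 38.3 ± 1.36, Wwtr1 at 33.4 ± 0.556, Tead1 at 32.1 ± 4.24 and Ajuba at 31.8 ± 1.86 CPM per kb. Within this group the ranges of neighbours overlapped, except that every Yap1 value lay above every Wwtr1 value. Lats2 was lower at 16.2 ± 0.515 and Tead4 lowest at 3.71 ± 0.525 CPM per kb. Counts behind these control levels ran from 370 for Tead4 in control 1 to 57909 for Ankrd1 in control 1. Every control value of Ankrd1, Ccn1 and Ccn2 was above every control value of the other genes on this scale.

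**Figure D1:**
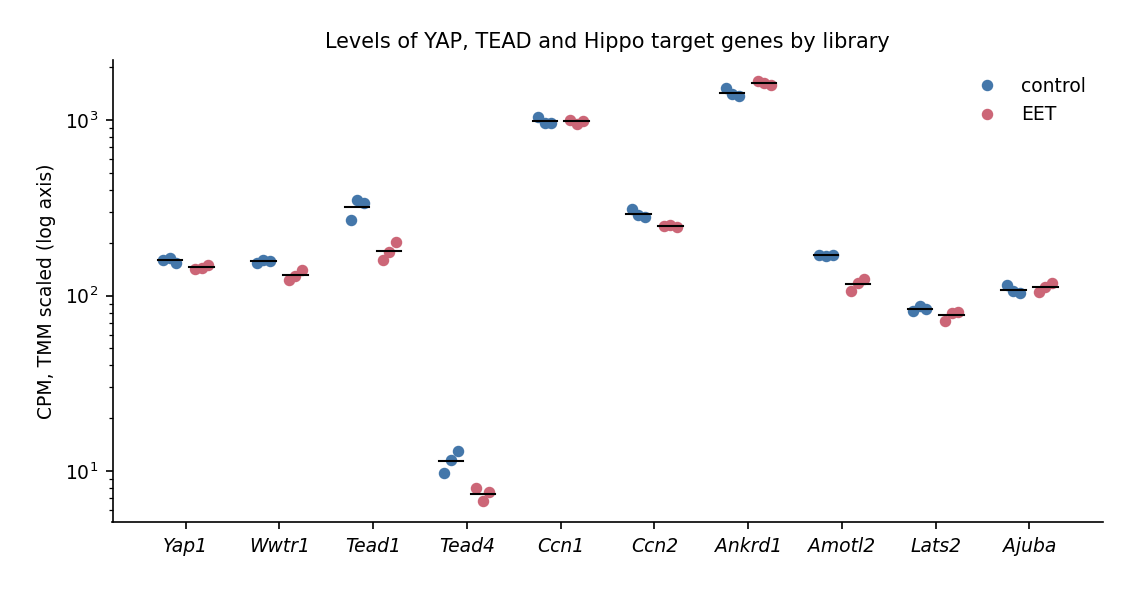
TMM-scaled CPM (log axis) of each of the 10 genes in the 3 control (blue) and 3 EET (red) libraries, with bars at the means. Tead1, Tead4 and Amotl2 show the widest gaps between groups, Ccn1 and Ajuba overlap, and Ankrd1 is the only gene with all EET libraries above all controls.

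As counted, 5 of the 10 genes fell with EET, 1 rose and 4 did not pass (quasi-likelihood test of edgeR, p adjusted by Benjamini-Hochberg over 16097 genes and under 0.05). Over all genes tested 23.3% were lower and 24.6% higher. Control and EET values did not overlap for 8 of the 10 genes, and for 57.7% of all genes. The median log2 fold change of the 10 genes was −0.19, beside 0.005 over all genes tested. Fold changes in these libraries follow mRNA length, short mRNAs being higher and long ones lower with EET. Each gene is therefore also given from a fit that removes, per library, the smooth dependence on mRNA length and GC content. Such a value compares a gene with mRNAs similar in both. In that fit 5 of the 10 genes were called lower and 1 higher, where 16.8% and 17.3% of 13811 protein-coding genes were. Of the 10 genes 4 were lower in both fits: Tead1, Tead4, Ccn2 and Amotl2. Over the 13811 genes, at most 16.8% can be lower in both, that being the share lower with the trend removed.

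The cofactors moved little. Yap1 (chromosome 9, 7931999 to 8004596, minus strand, GRCm38) was at 161, 165 and 153 CPM in controls and at 141, 145 and 149 CPM with EET. All controls lay above all EET libraries, but the log2 fold change of −0.14 ± 0.06 (SE) did not pass the test across all genes (edgeR adjusted p = 0.0927). With the length and GC trend removed its value was 0.07 ± 0.05 (adjusted p = 0.263). Wwtr1, the gene of the YAP paralog TAZ (chromosome 3, 57455649 to 57575910, minus strand), was at 154, 159 and 157 CPM and at 124, 129.6 and 141 CPM. It fell by 0.26 on the log2 scale (SE 0.07, edgeR adjusted p = 0.00622), to 0.838 of its control level, with no overlap between groups. That fall was close to the median of mRNAs of like length (−0.25 over 3140 genes within 20% of its 4697 bp), and with the trend removed Wwtr1 was at 0.0027 (adjusted p = 0.973). Within libraries the log2 ratio of Wwtr1 to Yap1 counts went from −0.03 ± 0.05 to −0.15 ± 0.06 (SD, n = 3 each; exact two-sided permutation p = 0.1, the smallest that 3 against 3 libraries can give; 0.133 adjusted over 4 pairs).

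Tead1 and Tead4, genes of the DNA-binding partners of YAP and TAZ, both fell. Tead1, the main TEAD gene by level in controls (chromosome 7, 112679318 to 112906807, plus strand), was at 271, 349.6 and 338 CPM in controls and at 159.9, 178 and 203 CPM with EET. Its lowest control stood well above its highest EET library, and it fell to 0.564 of control (log2 fold change −0.83 ± 0.10 (SE), edgeR adjusted p = 1.89e-05). Its mRNA is the longest of the 10, at 9964 bp, and 675 genes of like length had a median of −0.63. With the trend removed Tead1 was still called lower, at −0.20 ± 0.05 (adjusted p = 0.00285). Tead4, which acts in myogenic differentiation (chromosome 6, 128224288 to 128300823, minus strand), was at 9.72, 11.5 and 12.9 CPM in controls and at 7.98, 6.75 and 7.55 CPM with EET. The groups did not overlap, and the fall of 0.62 (SE 0.14, edgeR adjusted p = 0.00189) stood apart from like-length mRNAs, whose median was 0.01 and first quartile −0.19. The trend-removed value was nearly the same, −0.65 ± 0.13 (adjusted p = 0.00083). The ratio of Tead4 to Tead1 counts, −4.81 ± 0.11 and −4.60 ± 0.24 on the log2 scale, was not distinguishable between groups (exact permutation p = 0.3), and its difference of 0.21 was 0.08 without EET 1 and turned to −0.44 with the trend removed.

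The other TEAD genes had other values. Tead2, known from early mouse embryos, rose from 58.1 ± 2.24 to 81.6 ± 5.29 CPM (log2 fold change 0.49 ± 0.08, edgeR adjusted p = 8.55e-05), and by 0.54 ± 0.06 with the trend removed (adjusted p = 1.45e-06). Tead3 was at 21.9 ± 2.25 and 21.6 ± 1.87 CPM (adjusted p = 0.926). Per kb of mRNA, Tead1 made up 48.2%, 54.6% and 55.1% of the summed TEAD level in controls and 30.8%, 34.4% and 38.5% with EET. For Tead2 those shares were 31.5%, 26.5% and 26.8% in controls and 48.0%, 47.7% and 42.1% with EET. On this per kb scale, with the trend kept, Tead1 was thus above Tead2 in every control and below it in every EET library. The exact permutation p was 0.1 for both shares, the smallest possible. In CPM, not divided by length, Tead1 stayed above Tead2 in every library. With EET Tead1 was at 159.9, 178 and 203 CPM and Tead2 at 85.0, 84.4 and 75.5 CPM. With the trend removed the log2 ratio of Tead2 to Tead1 per kb was −0.49, −0.64 and −0.71 in controls and 0.22, 0.18 and −0.04 with EET, so the order turned in EET 1 and EET 2 but not in EET 3. These shares were looked at after the values were seen. The log2 ratio of Tead2 to Tead1 counts was higher with EET by 1.31 as counted and by 0.73 with the trend removed. The opposite calls of Tead1 and Tead2 held in both fits.

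**Figure D2:**
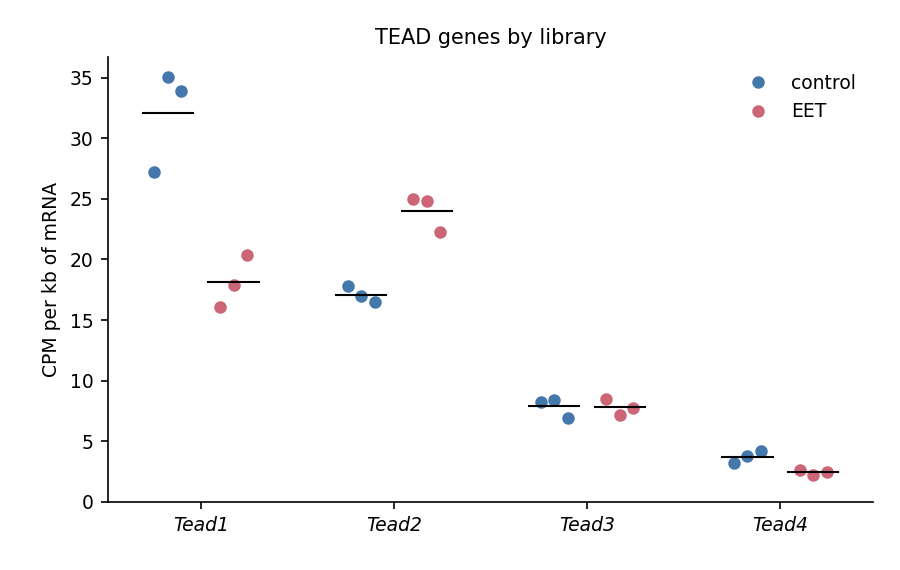
CPM per kb of mRNA of the 4 TEAD genes in each control (blue) and EET (red) library, with bars at the means. On this per kb scale, Tead1 lies above Tead2 in the controls and below it with EET (in EET 3 not once the length trend is removed), and Tead3 hardly differs.

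The CCN genes, which encode secreted matricellular proteins and are the most used YAP read-outs, differed from each other. Ccn1 (chromosome 3, 145646976 to 145649981, minus strand) was at 1049, 961 and 962 CPM in controls and at 1002, 958 and 993 CPM with EET. The groups overlapped, and the 95% interval of the log2 fold change ran from −0.15 to 0.13 (value −0.01, edgeR adjusted p = 0.924). Its mRNA has 2019 bp, and 2446 genes of like length had a median of 0.30. Ccn1 was called lower once the length and GC trend was removed, at −0.30 ± 0.04 (adjusted p = 1.58e-05), although its CPM hardly differed. Ccn2, long known as connective tissue growth factor (chromosome 10, 24595442 to 24598683, plus strand), was at 311, 289.8 and 281 CPM in controls and at 249, 254 and 246 CPM with EET. Every EET library was below every control, and Ccn2 fell to 0.85 of control (log2 fold change −0.23 ± 0.06, edgeR adjusted p = 0.00729). With the trend removed it was at −0.37 ± 0.04 (adjusted p = 2.59e-06), and genes of its length (2490 bp) had a median of 0.16. The log2 ratio of Ccn1 to Ccn2 was 1.75 ± 0.02 in controls and 1.98 ± 0.05 with EET, higher in all 3 EET libraries (exact permutation p = 0.1, 0.133 adjusted over 4 pairs). The difference of 0.23 shrank to 0.07 with the trend removed.

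Ankrd1, a YAP target that encodes a cardiac and skeletal muscle ankyrin repeat protein (chromosome 19, 36111961 to 36120099, minus strand), was the 1 gene of the 10 that rose. It was at 1522, 1409.9 and 1385 CPM in controls and at 1675, 1627 and 1592 CPM with EET. The groups did not overlap, and the log2 fold change was 0.18 ± 0.07 (edgeR adjusted p = 0.0324). The call was lost without control 2 (adjusted p = 0.144), control 3 (0.137), EET 1 (0.105) or EET 2 (0.0875). The rise was smaller than that of mRNAs of like length (median 0.30 at 2020 bp), and with the trend removed the value was −0.09 ± 0.04 (adjusted p = 0.1).

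Among the genes that feed back on the pathway, Amotl2 fell. It encodes a motin-family protein that binds YAP at junctions and in the cytoplasm (chromosome 9, 102716672 to 102733418, plus strand). Amotl2 was at 169.7, 168 and 171 CPM in controls and at 107, 118 and 125 CPM with EET. The gap between groups was far wider than the spread within them. It fell to 0.689 of control (log2 fold change −0.54 ± 0.07, edgeR adjusted p = 2.48e-05), and was at −0.33 ± 0.05 with the trend removed (adjusted p = 6.03e-05). Lats2, the kinase that is also a YAP target (chromosome 14, 57689662 to 57758388, minus strand), was at 81.6, 86.9 and 83.9 CPM and at 71.8, 79.6 and 81.0 CPM. The groups were narrowly separate and the test was not passed (log2 fold change −0.12 ± 0.07, edgeR adjusted p = 0.197; −0.07 without EET 1). Genes of its length (5191 bp) had a median of −0.30. Lats2 was called higher once the length and GC trend was removed, at 0.23 ± 0.05 (adjusted p = 0.00285). Its log2 ratio to the paralog Lats1 was −0.87 ± 0.13 in controls and −0.31 ± 0.12 with EET, without overlap (exact permutation p = 0.1, 0.133 adjusted over 4 pairs). The difference of 0.55 was 0.41 with the trend removed. As counted, Lats1 itself fell (log2 fold change −0.67). Ajuba, a LIM protein that inhibits LATS kinases (chromosome 14, 54567472 to 54577558, minus strand), was at 115, 106 and 103 CPM and at 105, 112 and 118 CPM. Its groups overlapped (log2 fold change 0.05 ± 0.07, edgeR adjusted p = 0.585; 0.09 ± 0.05 with the trend removed, adjusted p = 0.2).

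**Figure D3:**
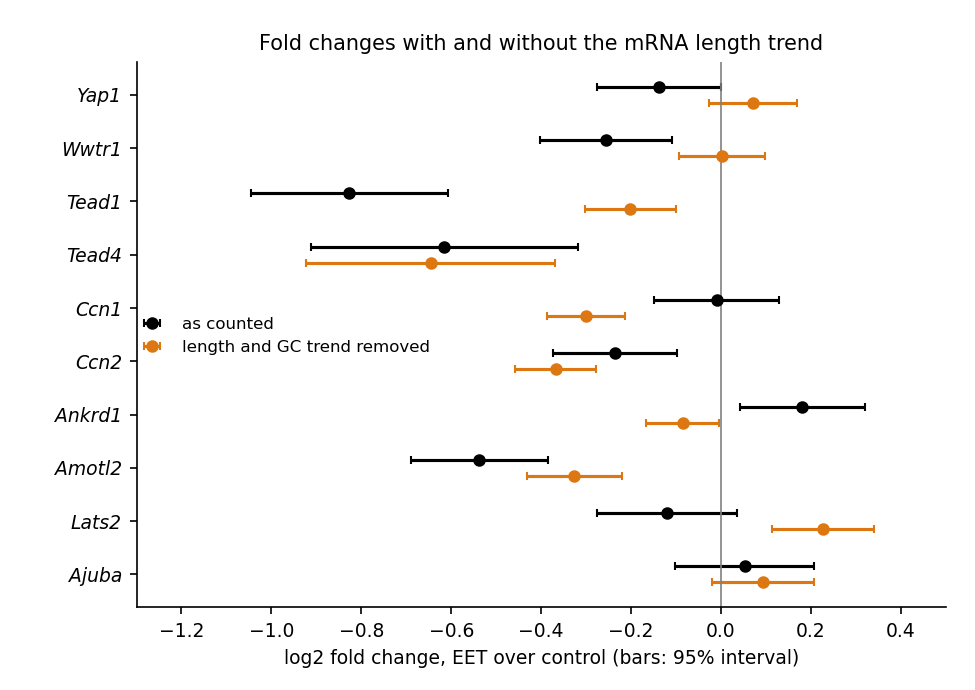
Log2 fold change of EET over control for each gene with its 95% interval, as counted (black) and with each library's mRNA length and GC trend removed (orange). Tead1, Tead4, Ccn2 and Amotl2 lie below 0 in both, Ccn1 moves from −0.01 to −0.30, and Lats2 moves from −0.12 to 0.23.

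The 10 genes stood differently among mRNAs of their length. Yap1, Wwtr1, Ajuba and Ankrd1 lay between the first and the third quartile and were called in neither direction once the trend was removed. Tead4, Ccn1, Ccn2 and Amotl2 lay below the first quartile of genes of their length, and Tead1, by −0.83 against −0.82, just below it. Lats2 lay above the median of −0.30 but below the third quartile of −0.08. Slopes of library deviations with length were 0.12, 0.24 and 0.24 log2 units per doubling in control 1, 2 and 3 and −0.27, −0.21 and −0.11 in EET 1, 2 and 3. Control 1 and EET 3, with the slopes nearest 0 in their groups, were also the libraries whose Tead1 level was nearest the other group. The part of RNA quality or library preparation in these trends was not tested. Counts of other genes on the same exons were low. Gm20416, antisense to Yap1, held at most 2, and Gm15270, antisense to Ccn2, at most 7. Gm49361, on the strand of Lats2, held 0 in every library. Whether reads on shared exons were dropped is not known, as the counter is not given.

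**Figure D4:**
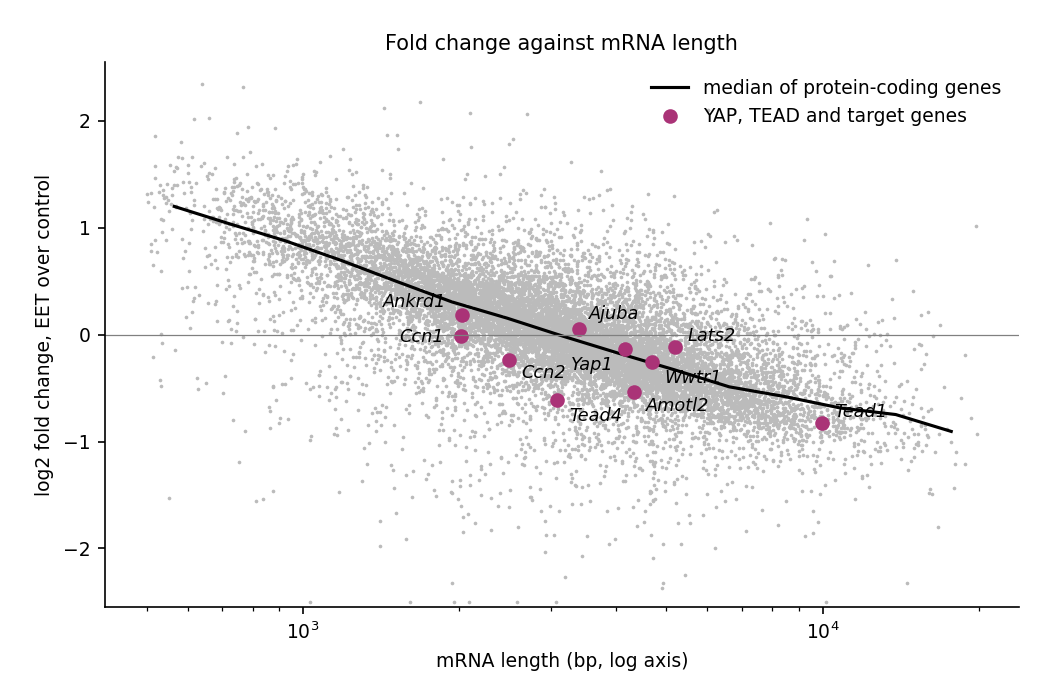
Log2 fold change as counted against mRNA length (log axis) for protein-coding genes (grey; values beyond ±2.5 are drawn at the edge), with the median by length (line) and the 10 genes (purple). Tead1, Tead4, Ccn1, Ccn2 and Amotl2 lie below the line, and Lats2 lies above it. Tead1 is the longest of the 10 mRNAs.

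The other genes of the pathway were taken as 27 Hippo kinases, adaptors, upstream regulators and TEAD partners, of which 21 fell, 3 rose and 3 did not pass. Among the 22 that act above or on YAP, 20 fell, 1 rose and 1 did not pass, at a median log2 fold change of −0.47, where 23.3% of all genes were lower and 24.6% higher and their median was 0.005. The mRNAs of the 22 have a median length of 5108.5 bp. Once the trend was removed 10 of the 22 were lower and 1 higher, at a median of −0.17, beside 16.8%, 17.3% and −0.012 over all genes. In both fits 9 of the 22 were lower, where at most 16.8% of all protein-coding genes tested can be. Of the other 5, which are TEAD and Vestigial-like genes, 2 rose, 1 fell and 2 did not pass. All 10 kinase cascade genes of this list fell, from −0.22 (Stk3, the MST2 kinase) to −0.80 (Taok3, a kinase that activates MST kinases). Of these, 5 were lower with the trend removed. The list does not hold Lats2, which belongs to the same cascade. Lats2 did not pass as counted (−0.12, edgeR adjusted p = 0.197) and was called higher with the trend removed (0.23, adjusted p = 0.00285). Sav1, the scaffold of the MST kinases, went from 48.2 ± 6.66 to 34.8 ± 3.17 CPM (−0.47 on the log2 scale, −0.60 after trend removal), and Lats1 from 154 ± 17.1 to 96.7 ± 13.4 CPM (−0.67 and −0.18). Fat1, an atypical cadherin, fell from 345 ± 65.4 to 152 ± 19.4 CPM (log2 fold change −1.18 ± 0.13, edgeR adjusted p = 2.56e-05, or −0.52 with the trend removed), and its relative Fat4 from 6.47 ± 0.623 to 2.38 ± 0.525 CPM (−1.44, or −0.79).

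The motin, adaptor, LIM protein and Vestigial-like genes named next split in direction. Amotl1, a motin like Amotl2, fell from 145 ± 16.9 to 80.4 ± 7.27 CPM (log2 fold change −0.85 ± 0.09, edgeR adjusted p = 5.47e-06, or −0.22 with the trend removed). Wwc2, a KIBRA-family adaptor of LATS kinases, had −0.58 ± 0.07 (adjusted p = 1.09e-05) but 0.05 with the trend removed (adjusted p = 0.467). Wtip, a LIM protein of the Ajuba family, rose from 18.5 ± 2.96 to 32.7 ± 3.78 CPM (0.82 ± 0.12, edgeR adjusted p = 6.65e-05, or 0.37 with the trend removed). Among the Vestigial-like cofactors, which bind TEAD in place of YAP, Vgll4 fell from 46.0 ± 2.64 to 32.2 ± 3.17 CPM (−0.51 ± 0.09, edgeR adjusted p = 0.000295). Its fall was larger once the length and GC trend was removed (−0.80 ± 0.09, adjusted p = 4.41e-06). Vgll2, the muscle member, rose from 62.7 ± 2.64 to 81.3 ± 3.64 CPM (0.37 ± 0.07), a call lost with the trend removed (−0.13, adjusted p = 0.0698). Vgll3 was at 284 ± 21.4 and 260.5 ± 14.2 CPM (adjusted p = 0.188) and was called higher only with the trend removed (0.33, adjusted p = 1.22e-05).

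A second set of targets, from a signature of YAP and TAZ activity in human tumours, was used to ask whether the fall of Ccn2 and Amotl2 was shared. Of its 17 genes outside the 10, 9 fell, 1 rose and 7 did not pass, at a median log2 fold change of −0.29, beside 23.3% lower, 24.6% higher and a median of 0.005 over all genes. The median mRNA among them is 4265 bp long. With the trend removed 6 were lower and 0 higher, at a median of −0.14, beside 16.8%, 17.3% and −0.012 over all genes. In both fits 5 of the 17 were lower, where at most 16.8% of all protein-coding genes tested can be. The genes with the smallest p were Dock5, a Rac activator, from 45.0 ± 3.26 to 25.6 ± 1.04 CPM (log2 fold change −0.82 ± 0.09, edgeR adjusted p = 4.74e-06), Crim1, a transmembrane BMP regulator (−0.78 ± 0.09), and Asap1, an Arf GTPase-activating protein (−0.70 ± 0.08). With the trend removed Crim1 and Asap1 kept their calls, at −0.33 and −0.23, and Dock5 at −0.18 did not (adjusted p = 0.0528). Igfbp3, an IGF-binding protein, was the 1 gene that rose, from 63.6 ± 3.62 to 75.6 ± 1.31 CPM (0.25 ± 0.07, edgeR adjusted p = 0.0102), a call lost with the trend removed (0.08, adjusted p = 0.27) and without control 2. Endothelial, pericyte and fibroblast marker sums were lower in the same libraries without overlap. Leukocyte marker sums overlapped, and 1 of 8 leukocyte markers was lower as counted. Of these 8, 5 were lower and 1 higher with the trend removed. The part of such cells in the falls of the target genes was not tested. In bulk libraries, fewer cells of a type and less RNA per cell cannot be told apart.

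**Figure D5:**
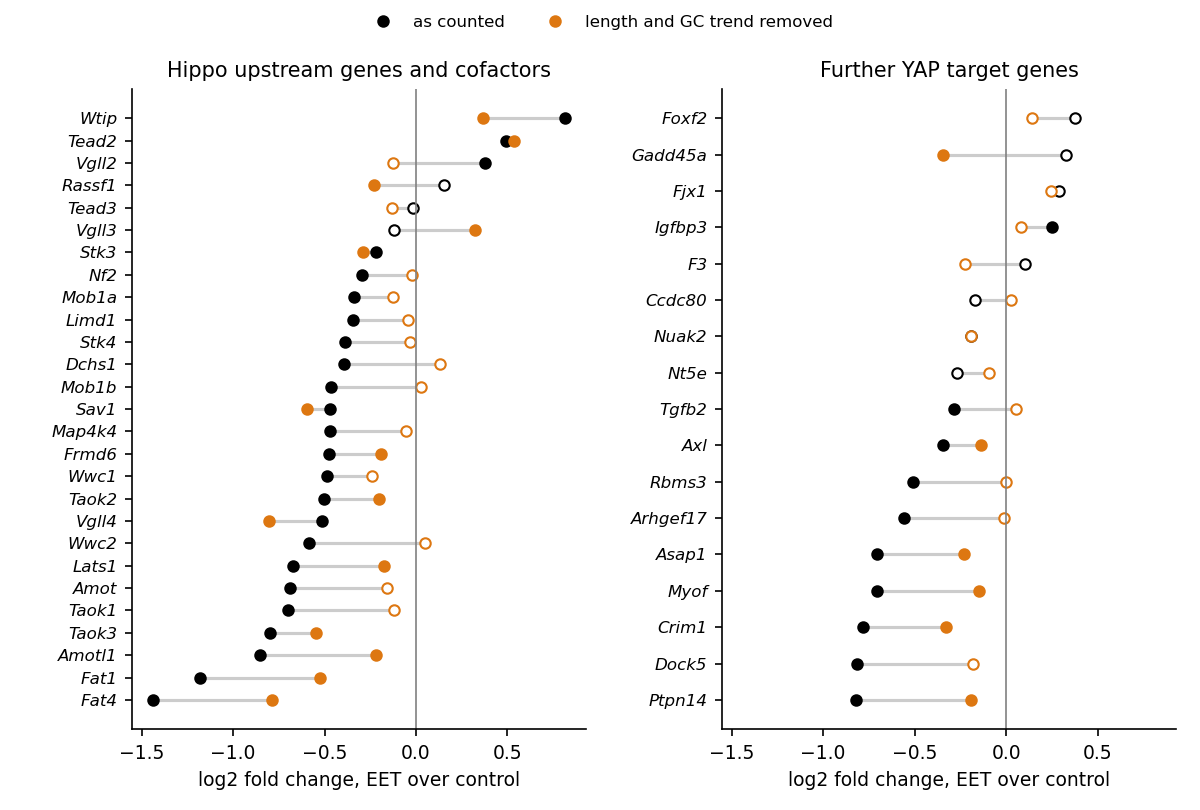
Log2 fold change of EET over control for 27 Hippo upstream genes and TEAD partners (left) and 17 further YAP target genes (right), as counted (black) and with the mRNA length and GC trend removed (orange). Filled points have an adjusted p under 0.05; most upstream genes lie below 0 as counted and move toward 0 with the trend removed.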

How the data were processed

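RNA of 3 control and 3 EET libraries was sequenced as paired reads after poly(A) selection and dUTP marking of the second strand, per the labels' protocols. The deposited counts are whole numbers for each library and gene symbol, with no normalization. Per the submitters' processing notes, FastQC, cutadapt, DESeq2 and GRCm38 were used; aligner, counter, strand setting and annotation: not given in the sources used here. Groups and replicate numbers come from sample titles.

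Counts were tested with edgeR 4.0.16 under R 4.3.3 (filterByExpr, TMM, robust glmQLFit, glmQLFTest, no block); 16097 genes passed the filter, the 10 genes among them. A gene was called at a Benjamini-Hochberg adjusted p under 0.05 over all genes tested, and rose and fell are used of called genes. SEs and 95% intervals of log2 fold changes are those of the edgeR fit. For the fit with the trend removed, the smooth (robust loess, span 0.3) of a library's departures from the 6-library mean against log2 mRNA length and GC percent entered as an offset, for 13811 protein-coding genes. Its SEs leave out the error of the trend. Lengths, GC content and coordinates are from GENCODE M21 (GRCm38), by the longest protein-coding transcript. Even counts were commoner than odd ones among low counts (61.3% to 65.6% of counts of 11 to 50), so both mates of a pair may have been counted and precision is lower than the totals give; counts divided by 2 were an alternative. Others were RLE scaling, no filter, DESeq2 1.42.0, over 5 CPM in at least 3 libraries, the replicate block and leaving out each library. Added after the data were seen were a fit without control 1 and EET 3, whose length slopes are nearest 0, and one over the protein-coding genes with the trend kept. The steps were checked on simulated counts.

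The 10 genes and the lists were chosen with earlier results of these data known. The text names the 10 genes, the 3 genes with the smallest p in each direction among those called in each further list, Lats1 and Myod1; Stk3, Taok3, Sav1, Fat4, Tead3, Vgll3 and Vgll4 were added after their values were seen, for their roles, and so were the marker genes named beside Myod1.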

Additional observations from a re-analysis of the deposited data

How the results depend on the processing

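Of the 10 genes, Tead1, Tead4, Ccn2 and Amotl2 kept direction and call under all 15 alternatives, Wwtr1 under 14 (all but removal of the trend) and Ajuba was called under none. Trend removal, run over 13811 protein-coding genes, gave 2394 genes higher and 2316 lower in place of 3967 and 3749 (3675 and 3640 over the same 13811 genes with the trend kept). It took the upstream list from 21 to 11 lower and the further targets from 1 to 0 higher, and turned Yap1 (0.071), Wwtr1 (0.0027), Ankrd1 (−0.085), Lats2 (0.23) and the ratio of Tead4 to Tead1 (−0.44). Without 1 library Ajuba ran from 0.014 to 0.10. Ccn1, near 0, ran from −0.032 to 0.032 when 1 library was left out and was at 0.014 without both control 1 and EET 3. Without 1 library, 0 to 1 of the 10 genes were higher and 0 to 2 further targets. The further targets had 2 higher without a filter, under the filter of over 5 CPM, with counts divided by 2, with the replicate block, without control 1 and EET 3 and over protein-coding genes alone. The replicate block also called Yap1 lower (−0.14, adjusted p = 0.0453), as did the fit without control 1 and EET 3 (−0.17, adjusted p = 0.0131), which called Lats2 lower too (−0.19, adjusted p = 0.0173); no other call of the 10 genes changed with the block. Same-numbered libraries did not deviate together (correlations −0.05 to 0.01), so the numbers were not taken as pairs. DESeq2 made the same 6 calls among the 10 genes.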
